A study of Mus musculus with 4 samples.

Results

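Serine and folate one-carbon metabolism was described here through 9 genes of the 24169 in the deposited expression table. They are the serine synthesis genes Phgdh, Psat1 and Psph, the cytosolic folate genes Shmt1 and Mthfd1, and the mitochondrial folate genes Shmt2, Mthfd2, Mthfd1l and Aldh1l2. Aldh1l2 was chosen by its measured rise in treated cells, and the other 8 were listed as its pathway. The MBP difference of Aldh1l2 is therefore given as a description with no test.

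RNA was measured in C8-D1A, an established clonal line of mouse astrocytes. There were 2 untreated libraries, called control 1 and control 2, and 2 libraries of cells treated with MBP at 1 mM for 24 h, called MBP 1 and MBP 2. The title of the study concerns dibutyl phthalate, a plasticizer that the body converts to monobutyl phthalate, while the labels give the treatment only by the letters MBP. No genotype or transgene separates the groups, and all cells are of the same line. Each p-value sets a difference between groups against the spread between libraries of a group, estimated partly from the other genes tested. The labels do not say whether replicates are separate cultures, so that spread may be technical.

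Cells make serine from a glycolytic intermediate in a short chain of reactions run by Phgdh, Psat1 and Psph. Serine hydroxymethyltransferases then move a carbon unit from serine to folate and leave glycine. Mitochondria oxidise that unit to formate, the cytosol uses formate to build purines, thymidylate and methyl groups, and parallel enzymes in both compartments let the flow run either way. In the brain astrocytes are the main makers of serine, which they also pass to neurons as the precursor of the NMDA receptor co-agonist D-serine. The transcription factor ATF4 is a known activator of most of these genes in mammalian cells.

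Depth, read from the step size of the FPKM values, was 23571000 to 25907000 reads per library. Per gene, FPKM times merged exon length gave whole reads within 0.01 for all 9 members, from 730 for Psph in control 1 to 16022 for Psat1 in MBP 2. Among 12403 genes tested, limma called 0% at an adjusted p under 0.05 (0 of 12403), and 1201 had an unadjusted p under 0.05. Limma-voom on the recovered reads called 18 of 14518 genes, under its own filter of a mean of at least 10 reads. None of the 18 was a member. Groups did not overlap for 21.3% of tested genes with higher values in MBP and for 23.5% with lower values. The labelled cell type was only partly borne out by its markers. Of 8 astrocyte markers Slc1a3 was listed at 0 in 3 libraries and at 0.00452 FPKM in MBP 2, and Gfap, Aldh1l1, Slc1a2, Aqp4 and Gja1 also lay under the filter, which left Sox9 and S100b. The whole astrocyte list summed to 7.61 to 8.50 FPKM. Markers of the oligodendrocyte lineage summed to 116.2 and 111.2 FPKM in control cells and 103.5 and 103.1 with MBP, led by Sox10, with Mag at 0 in 3 of 4 libraries. Neuronal markers, mostly Tubb3, summed to 36.5 and 33.6 against 27.1 and 26.3, with Snap25 at 0 in 3 of 4 libraries. Fibroblast and pericyte markers, nearly all from Pdgfrb, summed to 7.71 and 7.18 against 6.83 and 6.45, with Col1a1, Pdgfra and Dcn under the filter. Endothelial markers summed to 5.61 to 6.24 FPKM, nearly all from Flt1, with Cldn5 at 0 throughout, and microglial markers to 0.505 to 0.651. The part of these marker levels in the results below was not tested.

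All 9 members passed the filter, which asked for 1 FPKM or more in 2 or more libraries. FPKM is per length, so levels can be set side by side between genes, but only roughly. The length that gave whole reads was the merged exon length, which exceeded the longest transcript unequally. It was 4329 against 2877 bases for Psph and 4435 against 3687 for Mthfd1l. Phgdh, Psat1 and Shmt2 were the most abundant and lay at the 98.7, 98.6 and 98.5 percentile of tested genes by mean level. Their order was Phgdh, Psat1 and Shmt2 in both controls. Shmt2 came first in MBP 1 and Psat1 in MBP 2, so no order of these neighbours held in all 4 libraries. Mthfd1l and then Aldh1l2 came next in all 4 libraries. Mthfd1 and Mthfd2 followed and changed places in control 2. Shmt1 and then Psph were lowest in all 4 libraries, with Psph at the 54.5 percentile.

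**Figure D1:**
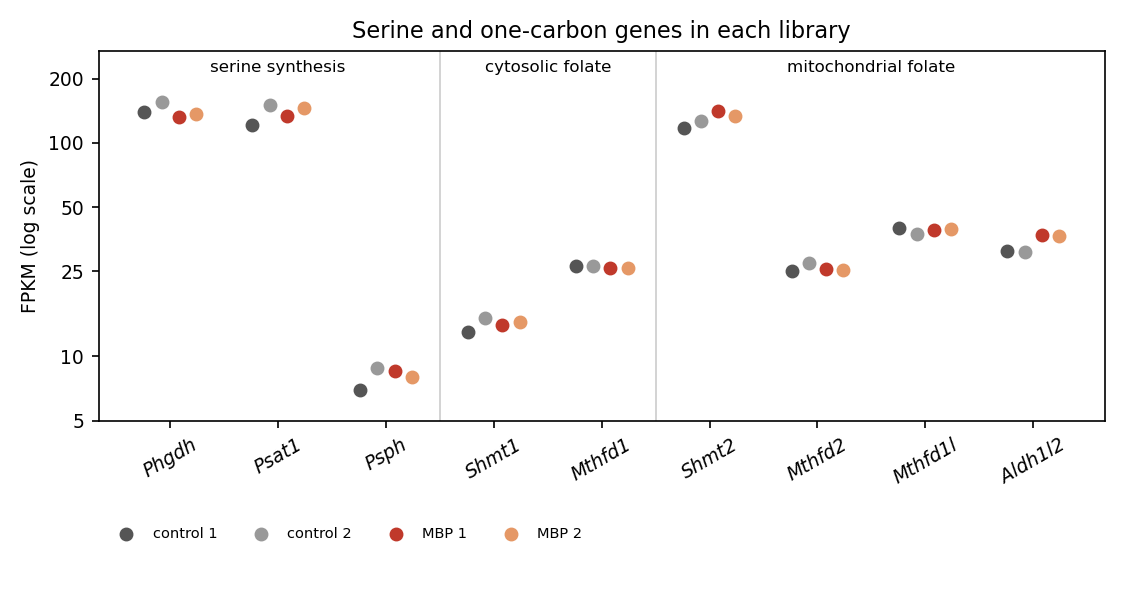
FPKM on a log axis (vertical) of the 9 members (horizontal), 1 point per library, grey for the 2 controls and red or orange for the 2 MBP libraries. Phgdh, Psat1 and Shmt2 sit above 100 FPKM, Psph is lowest at 6.93 to 8.85, and the libraries of a gene lie close together beside the distance between genes.

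None of the 3 genes of serine synthesis changed with MBP by limma's test. In bulk RNA a difference in RNA per cell and a difference in the mix of cells cannot be told apart, here and below. Phgdh, phosphoglycerate dehydrogenase, carries out the first step (ENSMUSG00000053398, chromosome 3, 98313170 to 98339990, minus strand, GRCm38 as in all positions here). It had 139.5 and 154.8 FPKM in control cells and 132.3 and 136.4 with MBP. Both MBP values were below both controls. The difference on the scale of log2(FPKM + 1), MBP minus control, was -0.13 (SE 0.0728, 95% interval -0.32 to 0.06, limma adjusted p = 0.582). It was -0.20 without control 1 and -0.05 without control 2. After a correction for GC content and transcript length it was -0.03.

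Psat1, phosphoserine aminotransferase, carries out the next step (ENSMUSG00000024640, chromosome 19, 15904678 to 15947337, minus strand). It had 121.4 and 149.8 FPKM in control cells and 133.2 and 145.4 with MBP, so both MBP libraries lay between the controls. The log2 difference was 0.05 (95% interval -0.25 to 0.34, limma adjusted p = 0.91). It was -0.11 without control 1 and 0.20 without control 2. Psph, phosphoserine phosphatase, releases serine (ENSMUSG00000029446, chromosome 5, 129765558 to 129787449, minus strand). It had 6.93 and 8.85 FPKM in control cells and 8.55 and 7.97 with MBP, again between the controls. The log2 difference was 0.07 (95% interval -0.23 to 0.37, limma adjusted p = 0.85). It was -0.09 without control 1 and 0.22 without control 2. The summed level of the 3 genes was 267.9 and 313.5 FPKM in control cells and 274.1 and 289.8 with MBP.

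The 2 cytosolic folate genes did not change by the test either. Shmt1, the cytosolic serine hydroxymethyltransferase (ENSMUSG00000020534, chromosome 11, 60788104 to 60811718, minus strand), had 13.0 and 15.2 FPKM in control cells and 14.1 and 14.5 with MBP, inside the range of the controls. The log2 difference was 0.02 (95% interval -0.20 to 0.24, limma adjusted p = 0.944), and it was -0.08 without control 1 and 0.13 without control 2. Mthfd1 encodes a single cytosolic protein with dehydrogenase, cyclohydrolase and formate-ligating activities (ENSMUSG00000021048, chromosome 12, 76255298 to 76319803, plus strand). It was the steadiest member, at 26.4 FPKM in both controls and 25.9 in both MBP libraries. Its groups did not overlap, yet the log2 difference was only -0.03 (95% interval -0.15 to 0.10, limma adjusted p = 0.871) and 0.02 after the GC and length correction.

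None of the 3 mitochondrial genes tested changed by the test, and Aldh1l2 was not tested because its rise chose it. Shmt2, the mitochondrial serine hydroxymethyltransferase (ENSMUSG00000025403, chromosome 10, 127517123 to 127522444, minus strand), had 117.5 and 126.4 FPKM in control cells and 140.5 and 132.9 with MBP. Both MBP values were above both controls. The means were 121.9 ± 6.29 and 136.7 ± 5.37 FPKM (SD, n = 2 each), and the log2 difference was 0.16 (SE 0.0676, 95% interval -0.01 to 0.34). It did not pass limma's test over all genes (adjusted p = 0.517, unadjusted p = 0.0595). It was 0.25 after the GC and length correction, and ran from 0.11 to 0.22 when 1 library was left out.

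Aldh1l2 encodes the mitochondrial formyltetrahydrofolate dehydrogenase, which burns the carbon unit to carbon dioxide and yields NADPH (ENSMUSG00000020256, chromosome 10, 83487450 to 83534140, minus strand). Its 31.3 and 30.7 FPKM in control cells and 36.9 and 36.5 with MBP came from 5716, 5424, 6628 and 7092 reads. The libraries of a group were nearly equal and the groups stood apart. Its rise in MBP is what the gene was picked for. The log2 difference was 0.24, and 0.21 after the GC and length correction.

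Mthfd2, the mitochondrial dehydrogenase and cyclohydrolase best known for high expression in embryos and tumours (ENSMUSG00000005667, chromosome 6, 83305691 to 83325908, minus strand), had 25.2 and 27.5 FPKM in control cells and 25.7 and 25.5 with MBP, inside the range of the controls. The log2 difference was -0.04 (95% interval -0.20 to 0.12, limma adjusted p = 0.845), with -0.10 without control 1 and 0.02 without control 2. Mthfd1l makes formate in mitochondria (ENSMUSG00000040675, chromosome 10, 3973118 to 4167081, plus strand). It had 40.0 and 37.4 FPKM in control cells and 39.1 and 39.4 with MBP, also inside that range. The log2 difference was 0.02 (95% interval -0.13 to 0.17, limma adjusted p = 0.93), with 0.07 without control 1 and -0.03 without control 2.

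Of the 8 members that were tested, 0 passed, beside 0% of all genes. Groups did not overlap for 1 of the 8 with higher values in MBP (Shmt2), beside 21.3% of tested genes, and for 2 of the 8 with lower values (Phgdh and Mthfd1), beside 23.5%. Their median log2 difference was 0.02, and that of all tested genes was -0.005. With 8 genes these shares lie near the background and are no result about the members. The GC content of the longest transcript was 57.2% for Phgdh and 57.4% for Shmt2, against a median of 49.0%. Across 12389 genes, which are not independent, fold changes fell with GC content (Spearman's rho -0.442). Aldh1l2 had a GC content of 47.7%. The part of GC content in the members' differences was not tested beyond the corrected values given above.

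**Figure D2:**
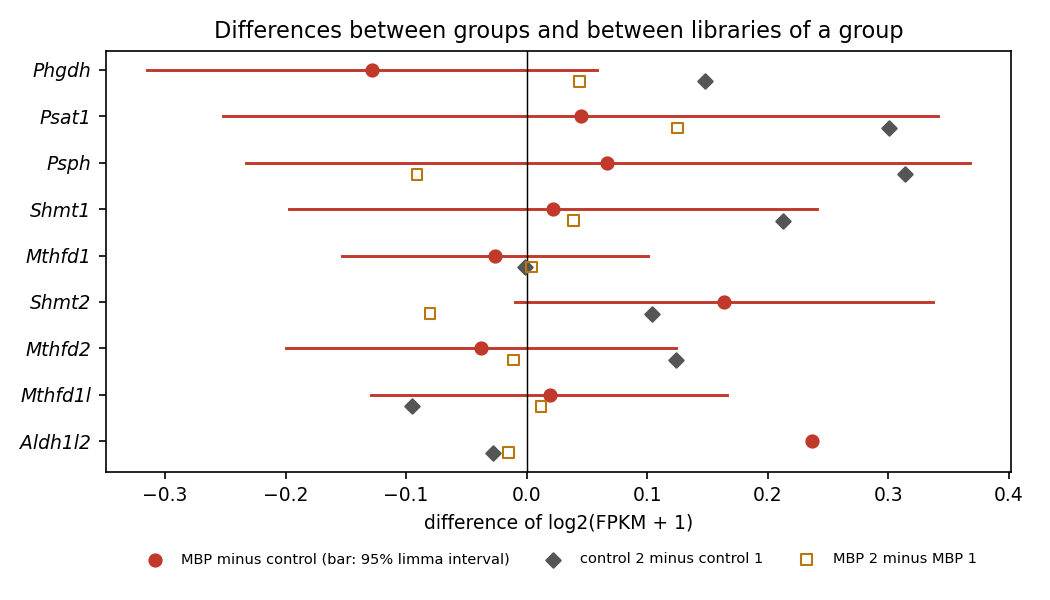
Differences of log2(FPKM + 1) (horizontal) for the 9 members (vertical). Red points are MBP minus control with limma's 95% interval, drawn for the 8 tested members and not for Aldh1l2. Diamonds are control 2 minus control 1 and open squares MBP 2 minus MBP 1. The diamonds of Psat1, Psph and Shmt1 (0.30, 0.31 and 0.21) lie further from 0 than their red points, and all 8 intervals include 0.

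In 7 of the 9 members the untreated libraries differed from each other by more than counting error. Control 2 over control 1 was 1.23 for Psat1 (exact 95% interval 1.20 to 1.26) and 1.28 for Psph (1.16 to 1.41). The ratio was 1.17 for Shmt1 (1.08 to 1.27), 1.11 for Phgdh (1.08 to 1.14), 1.09 for Mthfd2 (1.03 to 1.16) and 1.08 for Shmt2 (1.04 to 1.11). These 6 genes were higher in control 2. Mthfd1l was lower at 0.935 (0.895 to 0.977), while the intervals of Mthfd1 and Aldh1l2 included 1. These intervals come from the recovered reads and cover counting error only, so at high read numbers a small ratio can exclude 1. The share of all tested genes with such an interval was not computed. Whether this count is particular to the members therefore cannot be said, and no trait is read from it for the members. Outside them the ratio was 1.19 for Asns (1.14 to 1.24) and 1.09 for Atf4 (1.06 to 1.12), while the interval of Tyms included 1 (0.924 to 1.02). In 6 of the 8 tested members the controls were further apart than the group means, beside 56.8% of all tested genes. The median log2 difference of control 2 minus control 1 was 0.12 over all 9 members and -0.002 over all tested genes. By group of members it was 0.30 for serine synthesis, 0.11 for cytosolic folate and 0.04 for mitochondrial folate. In the further pathway lists described below it ran from -0.039 for other folate enzymes to 0.149 for serine use and breakdown. Between the MBP libraries 3 intervals excluded 1. Phgdh had a ratio of MBP 2 over MBP 1 of 1.03 (1.0003 to 1.0633), Psat1 a ratio of 1.09 (1.07 to 1.12) and Shmt2 of 0.946 (0.921 to 0.972).

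Related enzymes were compared as ratios of FPKM within each library, for the first 2 pairs a mitochondrial form over its cytosolic counterpart. Shmt2 was 9.05 and 8.31 times Shmt1 in control cells and 9.97 and 9.17 times with MBP, so the mitochondrial form prevailed in every library. The groups missed overlap narrowly, 9.05 against 9.17, with the controls further apart than that. The ratio reuses the Shmt2 values given above, and no share of other gene pairs was computed, so no shift is read from it. Mthfd1l was 1.52 and 1.42 times Mthfd1 in control cells and 1.51 and 1.52 times with MBP, a ratio near constant over the libraries. Mthfd2 was 7.17 and 8.42 times its relative Mthfd2l, which is also mitochondrial, in control cells and 7.79 and 7.04 times with MBP, and the groups overlapped. These members also share annotated domains, which the selection did not use. The table gives the Pfam domain SHMT to Shmt1 and Shmt2, FTHFS to Mthfd1 and Mthfd1l, and THF_DHG_CYH_C to Mthfd2 and Mthfd2l. Similar sequences could share reads between such pairs, and how the counting treated those reads is not given in the sources used here.

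**Figure D3:**
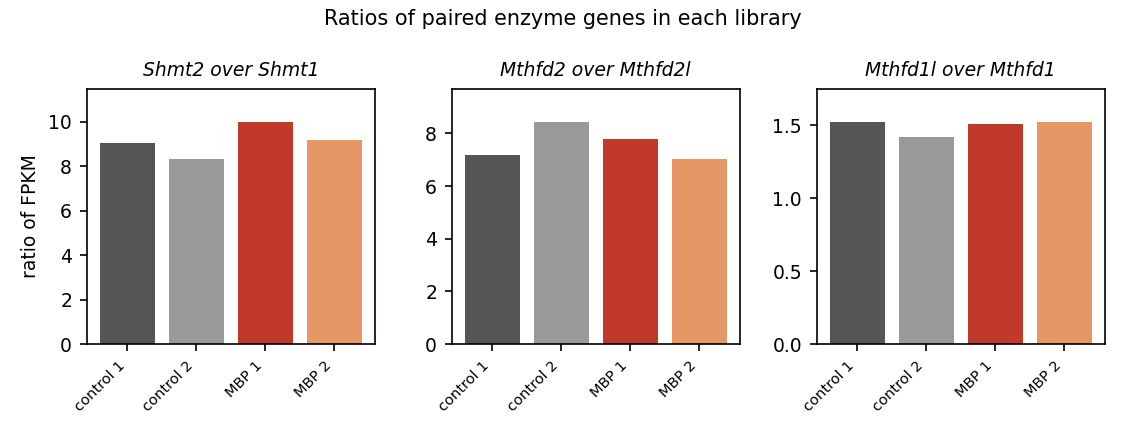
Ratio of FPKM (vertical, from 0) for 3 pairs of related genes in each of the 4 libraries (horizontal). Shmt2 stands at 8.31 to 9.97 times Shmt1, Mthfd2 at 7.04 to 8.42 times Mthfd2l and Mthfd1l at 1.42 to 1.52 times Mthfd1.

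The widest contrast of this kind was between Aldh1l2 and Aldh1l1. Aldh1l1 is the cytosolic counterpart of Aldh1l2 and a standard marker of astrocytes in mouse brain. Its reads numbered 9 and 12 in control cells and 6 and 7 with MBP, or 0.0818 and 0.113 against 0.0555 and 0.0598 FPKM. Aldh1l2 was 382.3 and 272.1 times as high in control cells and 664.9 and 609.8 times with MBP. The spread of these ratios rests on a handful of Aldh1l1 reads. In C8-D1A cells the folate dehydrogenase transcript was thus almost entirely the mitochondrial one. The glycine decarboxylase Gldc, which astrocytes in tissue express, was likewise low, at 0.0328 and 0.0452 FPKM in control cells and 0.0556 and 0.0617 with MBP.

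Promoters of 8 of the 9 members were found in the RefSeq set for GRCm38.p6, and the 250 bases before the start were searched on both strands for 3 short motifs. The first was CCAAT, the core of the box bound by NF-Y. It was present in 6 of the 8, all but Shmt2 and Mthfd1l, and in 33.8% of all 32851 promoters. The core of the element bound by ATF4 with C/EBP partners, TGATGNAA, was in 0 of the 8 and in 3.45% of all. The E-box bound by MYC, CACGTG, was in 0 of the 8 and in 6.02% of all. Psat1 has 2 starts in this set and held CCAAT at 1 of them. Members were counted by gene, with a match at any start, and the shares of all by promoter, so the units differ. A match is a run of letters and not a measured site. The promoters of Phgdh and Shmt2 are shown because these genes are the tested members with the largest differences, in opposite directions, and that of Mthfd2 because it held the most matches. Capitals mark the first motif on either strand. Phgdh lies at chr3:98339970-98340219, Shmt2 at chr10:127522445-127522694 and Mthfd2 at chr6:83317605-83317854, all on the minus strand.
Phgdh: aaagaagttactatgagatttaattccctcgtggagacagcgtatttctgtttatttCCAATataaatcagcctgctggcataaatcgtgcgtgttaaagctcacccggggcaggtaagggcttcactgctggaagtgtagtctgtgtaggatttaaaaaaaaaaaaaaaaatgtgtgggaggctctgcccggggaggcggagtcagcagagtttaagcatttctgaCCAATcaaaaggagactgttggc
Shmt2: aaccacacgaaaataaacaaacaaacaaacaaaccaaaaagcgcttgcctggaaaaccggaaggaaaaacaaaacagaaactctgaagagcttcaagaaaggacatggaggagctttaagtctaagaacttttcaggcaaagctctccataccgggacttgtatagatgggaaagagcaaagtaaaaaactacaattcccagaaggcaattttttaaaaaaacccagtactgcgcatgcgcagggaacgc
Mthfd2: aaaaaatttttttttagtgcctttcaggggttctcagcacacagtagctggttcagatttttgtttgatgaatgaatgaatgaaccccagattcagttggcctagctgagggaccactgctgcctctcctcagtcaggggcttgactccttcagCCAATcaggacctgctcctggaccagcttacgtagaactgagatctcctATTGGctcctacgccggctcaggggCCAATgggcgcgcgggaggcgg
Phgdh held 2 matches and Mthfd2 held 3, while Shmt2 held 0.

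The rest of the pathway was taken from 6 further lists with 49 genes, of which 44 were in the table and 35 passed the filter. By limma's test 0 of the 35 rose and 0 fell. Their median log2 difference was 0.03, against -0.005 for all tested genes. Groups did not overlap for 11 of the 35 with higher and 6 with lower values, beside 21.3% and 23.5% of all tested genes, and no lean is read from these counts. Folr2, Bhmt, Bhmt2, Sptlc3 and Sds were not analysed here.

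**Figure D4:**
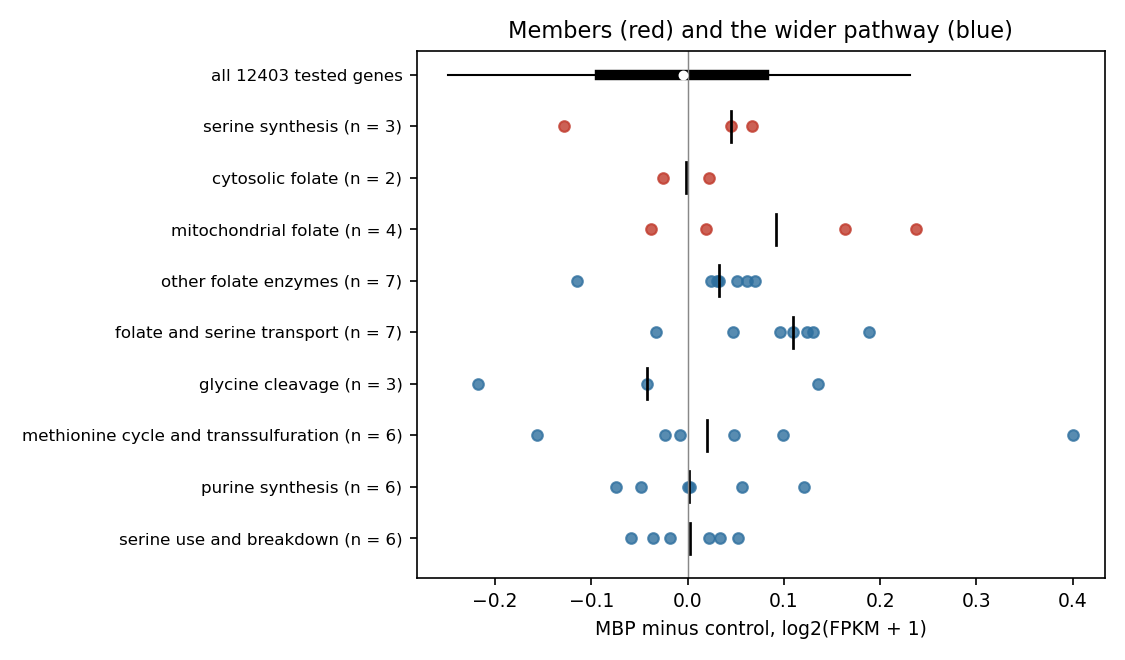
MBP minus control in log2(FPKM + 1) (horizontal), 1 point per tested gene, for the 3 groups of members (red) and 6 further lists (blue), with a black tick at each median. The top bar gives all 12403 tested genes as the 5th to 95th percentile (-0.25 to 0.23), with the thick part from the 25th to the 75th (-0.09 to 0.08), and most points fall within it. Cth, at 0.40, lies furthest to the right.

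Transport of serine and folate had the highest list median, 0.11 over 7 tested genes of 10 listed. Groups did not overlap for 4 of them, all higher in MBP, beside 21.3% of all tested genes, and 0 passed the test. Slc1a4, an exchanger of serine and other neutral amino acids, had 10.3 and 9.80 FPKM in control cells and 12.3 and 11.0 with MBP, a log2 difference of 0.19 (95% interval -0.002 to 0.38, limma adjusted p = 0.516). It was 0.11 without MBP 1 and 0.26 without MBP 2. Its relative Slc1a5 had 5.21 and 5.54 against 5.60 and 6.30. Sfxn1, which carries serine into mitochondria, had 5.39 and 5.05 against 5.72 and 5.69. Slc25a32, the mitochondrial folate carrier, had 3.61 and 4.29 against 3.95 and 4.90, and its groups overlapped.

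Among the other folate enzymes 7 of 10 were tested, 0 passed and the median was 0.03. Tyms, thymidylate synthase, had 20.6 and 20.0 FPKM in control cells and 22.1 and 20.6 with MBP. Mthfd2l, the adult relative of Mthfd2, had 3.51 and 3.27 against 3.30 and 3.62. Tyms was higher in both MBP libraries than in both controls by a narrow margin, and the groups of Mthfd2l overlapped.

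Glycine cleavage gave mixed values, with 3 of 4 genes tested, 0 passing and a median of -0.04. Amt, the aminomethyltransferase, had 9.49 and 11.1 FPKM in control cells and 8.67 and 8.71 with MBP, a log2 difference of -0.22 (95% interval -0.44 to 0.001, limma adjusted p = 0.514). That difference was -0.32 without control 1 and -0.11 without control 2. Dld, the dehydrogenase that this complex shares with pyruvate dehydrogenase, had 26.9 and 27.4 against 29.1 and 30.7. Gcsh, the carrier protein, had 38.2 and 36.4 against 36.3 and 36.2.

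In the methionine cycle and transsulfuration 6 of 11 genes were tested, 0 passed and the median was 0.02. Cth, which splits cystathionine to release cysteine, had 2.35 and 3.18 FPKM in control cells and 4.07 and 3.82 with MBP. Both MBP values were above both controls, and the log2 difference of 0.40 was the largest of the listed pathway genes (95% interval 0.08 to 0.72, limma adjusted p = 0.503). It was 0.56 without control 2 and 0.24 without control 1. Cbs, the enzyme before it, lay under the filter at 0.123, 0.279, 0.125 and 0.0577 FPKM. Ahcy, which clears the product of methylation reactions, had 46.7 and 50.2 FPKM against 43.1 and 43.5, a log2 difference of -0.16 (95% interval -0.31 to -0.01, limma adjusted p = 0.512). Mtr, methionine synthase, had 5.64 and 5.20 against 5.88 and 5.87.

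Purine synthesis, the main use of formate in dividing cells, had 6 of 6 genes tested, 0 passing and a median of 0.001. Atic, which adds the last folate-borne carbon, had 35.6 and 38.3 FPKM in control cells and 40.6 and 39.9 with MBP, a log2 difference of 0.12 (95% interval -0.03 to 0.27), or 0.07 without control 1. Ppat, the first enzyme, had 16.2 and 17.1 against 17.1 and 17.5. Adsl, adenylosuccinate lyase, had 10.5 and 11.1 against 10.4 and 9.99. Genes of serine use and breakdown had 6 of 8 tested, 0 passing and a median of 0.002. Srr, the racemase that makes D-serine, had 6.79 and 6.88 FPKM against 7.06 and 7.18. Sptlc2, of sphingolipid synthesis, had 5.72 and 6.28 against 6.16 and 6.17, and Sdsl had 1.10 and 1.62 against 1.37 and 1.13.

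ATF4 and its targets cross this pathway. Atf4 had 168.7 and 183.3 FPKM in control cells and 171.3 and 168.4 with MBP, a log2 difference of -0.05 (95% interval -0.22 to 0.12, limma adjusted p = 0.799). Asns, asparagine synthetase, had 64.1 and 76.5 against 77.6 and 77.4, and Chac1, which breaks down glutathione, had 12.7 and 15.2 against 13.9 and 15.8. The cystine transporter subunit Slc7a11 had 7.77 and 7.86 against 9.64 and 9.81, a log2 difference of 0.28 (95% interval 0.14 to 0.43, limma adjusted p = 0.457). After the GC and length correction that difference was 0.17. Of 7 such genes 0 passed the test. Groups did not overlap for Asns and Slc7a11, both higher in MBP, beside 21.3% of all tested genes. In 6 of the 7 the controls were further apart than the group means, beside 56.8% of all tested genes.

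The genes whose pattern over the 4 libraries was most like that of Aldh1l2 came from outside the pathway. Among 7071 protein-coding genes with a mean of at least 5 FPKM, the nearest were Tra2a, Cdk6 and Zdhhc21. Their root mean square differences of centred log2(FPKM + 1) from Aldh1l2 were 0.0103, 0.0164 and 0.0166. Tra2a had 23.5 and 22.7 FPKM in control cells and 27.6 and 26.9 with MBP. Shmt2 ranked 375 by the same measure, at 0.0636, and was the nearest of the members, while Phgdh ranked 5846. With 4 libraries this likeness is a description of values only.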

How the data were processed

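The authors deposited 1 table of FPKM values for 24169 genes, with 1 column per library. Per the submitters' processing notes, bcl2fastq, HISAT2 and GRCm38 were used. For the counting program, the annotation and strand, the answer is not given in the sources used here. Per the labels' protocols, ribosomal RNA was removed and a directional kit made the libraries. Columns were matched to samples by title, and replicate numbers follow accession order and pair nothing.

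Values were tested as log2(FPKM + 1), which understates changes of low genes, in the 12403 genes that reached 1 FPKM in 2 or more libraries. Limma 3.58.1 in R 4.3.3 was used (lmFit, eBayes with a spread trend, two-sided), with Benjamini-Hochberg adjustment over these genes and a threshold of 0.05. The script was checked on simulated data with changes much larger than the differences of the members. That check does not measure the power to find differences as small as theirs. Exon length, transcript length and GC content came from GENCODE mouse release 21, which held 24121 of the identifiers. Reads were recovered as FPKM times merged exon length divided by 1 step per library. At this scale 93.8% to 94.0% of the values counted came out whole within 0.05. Values of 0 and those of genes with many reads were left out of this share. Read numbers are not independent molecules.

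The members, the gene lists and the tests were chosen with earlier results of these data known. All members are named. Of each other list up to 3 genes with the lowest p are named, with Aldh1l1, Mthfd2l, Tyms, Sfxn1, Slc25a32, Gldc, Atf4 and Slc7a11, and some genes that this rule names are not reported here. Other pseudocounts, filters, scalings, spread models, a GC and length correction, limma-voom on recovered reads and each library left out were tried.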

Additional observations from a re-analysis of the deposited data

How the results depend on the processing

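With 2 libraries a group, limma's test called 0 genes and 0 of the 8 tested members, and 0 members in any of the 16 alternatives. For all genes the count was 18 with limma-voom on recovered reads and 0 to 1 when 1 library was left out (Snora69, named after its value was seen, without MBP 2). Of 31 named genes 20 kept the sign of their difference in every alternative run for them, among them Phgdh, Shmt2 and Aldh1l2 (0.21 to 0.26). Other filters and spread models leave the difference itself unchanged, so a sign could not turn there. Aldh1l2 was picked for its rise, and most genes named outside the members for a low p in these same libraries. Kept signs are therefore partly built in and are no support for a change. A filter of FPKM at least 5 gives no value for genes under it. With 1 library left out, log2 differences ran from -0.106 to 0.195 for Psat1, -0.089 to 0.224 for Psph, -0.084 to 0.128 for Shmt1, -0.10 to 0.024 for Mthfd2 and -0.029 to 0.066 for Mthfd1l. They ran from -0.110 to 0.010 for Atf4, -0.030 to 0.203 for Chac1, -0.028 to 0.076 for Mthfd2l, -0.219 to 0.10 for Sdsl and -0.024 to 0.091 for Sptlc2. A library left alone in its group was assumed to vary like the other group. After the GC and length correction the sign turned for Mthfd1 (0.015), Mthfd2 (0.002), Atf4 (0.032), Mthfd2l (-0.050), Sdsl (0.064) and Sptlc2 (-0.025), and with quantile normalization for Atf4 (0.061). The cause was not tested. No paired analysis was possible because the numbers in the titles match in at most 1 control and 1 MBP library, fewer than 2 pairs. Depth limits the ratios to Aldh1l1, which rest on 6 to 12 reads. The 16 alternatives were all listed with earlier results known.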
